A study of Rattus norvegicus with 18 samples.

Results

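The chow group of a feeding study gave the baseline of gene expression in the liver of overnight-fasted rats. Its members were the 6 arrays, of 18 in the series, whose label names the chow diet. They came from adult male Sprague Dawley rats, an outbred laboratory strain, kept free of specific pathogens, fed chow for 8 weeks on a light and dark cycle with food and water freely available, then fasted overnight and killed. The other groups, used here only for comparison, were rats of the same strain, sex and age class on a high fat diet (HFD, 6 arrays) or on the same diet plus a daily dose of 150 mg per kg of an extract of pomegranate skin (HFD+PE, 6 arrays). All 3 groups were fasted, so no fed liver was measured, and the sources used here do not give the time of day at which each animal was killed.

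Chow arrays 3 and 4 were averaged and counted as 1 animal, chow 3-4, which left 5 chow animals. Between these arrays 0 probe sets differed by over 2.0 log2 units, whereas the other chow pairs differed in 20 to 34 probe sets without chow 2 and in 43 to 62 with it. This count of animals is an inference from the values, since the labels describe each of the 6 arrays as a biological replicate. HFD arrays 1 and 2, and HFD+PE arrays 3 and 4, also had 0 such probe sets and were averaged too, which left 15 animals in the series. All other pairs of arrays had 18 or more. The merges were less alike in the SD of the difference between the arrays. It was 0.117 for HFD 1 and 2, 0.215 for chow 3 and 4, and 0.26 for HFD+PE 3 and 4. HFD 3 and 5, counted as different animals, also had 0.26, so the HFD+PE merge rests on the count of probe sets alone. The labels do not say how animals were allotted to cages or to days of tissue collection, and p-values measure only the spread between these samples, part of which may be technical.

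Values are log2 signals, in which a difference of 1 is a doubling. They were described for 14217 genes, each by its brightest probe set among those that name a single gene. The probe sets differ in affinity and the brightest approach saturation, so ranks of signal are a description of these arrays and not of molecules per cell. The chow arrays had medians of 5.4 to 5.5. Chow 2 stood apart from the others: 121 of 6923 genes lay at least 1 log2 unit from the median of the 5 animals, against 19 to 39 genes in the other animals. Its 3′ minus 5′ difference for GAPDH, a measure of RNA integrity that is larger in degraded RNA, was 3.2, against 2.1 to 2.8 on the other chow arrays. The spiked hybridization controls were higher on chow arrays 1, 2 and 3 (12.44 to 12.55) than on chow 4, 5 and 6 (11.69 to 11.84). The part of RNA integrity or of the hybridization in the results below was not tested.

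Hepatocytes make most of the proteins of blood plasma, clear ammonia through the urea cycle, oxidize fat and detoxify foreign compounds. During a fast the liver releases glucose made from amino acids and lactate, and turns fatty acids into ketone bodies. Much of this is controlled by liver-enriched transcription factors (the HNF and C/EBP families), by hormones such as glucagon, glucocorticoids and growth hormone, and by a circadian clock inside each cell.

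Secreted plasma proteins held most of the highest signals. Of the 14217 genes, 74 had a chow mean of 13 or above, 1035 lay from 10 to 13, 5171 from 7 to 10, 5729 from 4 to 7 and 2208 below 4. A mean of 10 or above was reached by 63 of 70 measured genes for carriers, coagulation, complement, protease inhibitors and acute phase proteins, against 7.8% of all genes. Their median was 12.57, against 6.62 over all genes, and 18 of the 30 brightest and 33 of the 100 brightest genes belonged to them.

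Albumin (Alb), the main protein of plasma, had the highest signal at 15, 15, 14.95, 14.9 and 15 in chow 1, 2, 3-4, 5 and 6. Its mean was 14.97 ± 0.045 (SD, n = 5), and the range between animals was 0.1, which is the step to which the deposited values were rounded. Gc, the vitamin D binding protein, was at 14.41 ± 0.022, haptoglobin (Hp), which binds free hemoglobin, at 14.4 ± 0.071, and transthyretin (Ttr), a carrier of thyroid hormone and of retinol-binding protein, at 14.24 ± 0.114. Ambp, the precursor of alpha-1-microglobulin and bikunin, was at 14.21 ± 0.074, and Rup2, a urinary protein of the alpha-2u-globulin family made by male rat liver, at 14.21 ± 0.055. Near-identical copies of that family can share probes, so the value cannot be assigned to 1 gene. Of the dimmer Rup2 probe sets, the dimmest had an SD of 0.77 and the others 0.05 and 0.07.

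The promoters of a few members are shown because they carry letters searched over all promoters below. Each is the stretch of 250 bases upstream of the RefSeq gene start on rat build GRCr8, written 5′ to 3′ on the strand of the gene. Capitals mark matches to TTGCNNAA (bound by C/EBP factors) and TTATGTAA (a D-box) in Alb, to TTGCNNAA and TTCNNNGAA (bound by STAT factors) in the fibrinogen gene Fgb, to TATAAA in Itih3 and to TGNACTTTG (bound by HNF4) in the urea cycle gene Cps1. The positions are chr14:17906980-17907229 (minus strand), chr2:170700876-170701125 (minus), chr16:6123375-6123624 (minus) and chr9:76063613-76063862 (plus).
Alb: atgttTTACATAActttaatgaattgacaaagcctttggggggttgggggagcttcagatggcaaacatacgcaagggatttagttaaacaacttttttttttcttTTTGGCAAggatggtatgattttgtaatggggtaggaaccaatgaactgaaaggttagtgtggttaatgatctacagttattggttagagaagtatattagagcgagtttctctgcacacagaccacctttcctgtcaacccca
Fgb: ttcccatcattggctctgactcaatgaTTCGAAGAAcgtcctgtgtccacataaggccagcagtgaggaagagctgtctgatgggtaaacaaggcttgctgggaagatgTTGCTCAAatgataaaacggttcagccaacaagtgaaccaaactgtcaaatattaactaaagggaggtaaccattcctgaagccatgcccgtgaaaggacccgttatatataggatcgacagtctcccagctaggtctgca
Itih3: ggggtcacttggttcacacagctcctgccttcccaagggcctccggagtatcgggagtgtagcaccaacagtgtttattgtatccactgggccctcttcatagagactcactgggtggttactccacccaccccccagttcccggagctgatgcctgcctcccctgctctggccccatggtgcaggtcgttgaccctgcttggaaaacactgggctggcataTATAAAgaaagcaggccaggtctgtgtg
Cps1: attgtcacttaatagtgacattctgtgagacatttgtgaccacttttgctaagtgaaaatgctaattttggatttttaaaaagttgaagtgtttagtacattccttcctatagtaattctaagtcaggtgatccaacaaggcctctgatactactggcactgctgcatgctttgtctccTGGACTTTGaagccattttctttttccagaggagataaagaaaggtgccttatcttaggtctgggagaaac

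A promoter was found for 11702 of the 14217 genes and for 79 of the 100 brightest. In all, 14 patterns were searched with the levels already known, TATAAA on the strand of the gene and the others on both strands, and the shares are descriptions without a test. The pattern TTGCNNAA was present in 22 of the 79 promoters (27.8%), against 8.17% of the promoters of all measured genes, and TATAAA in 14 (17.7%), against 5.55%. TGNACTTTG was present in 7 (8.86%), against 1.06%, and TTCNNNGAA in 11 (13.9%), against 6.13%. The fixed HNF4 letters CAAAGTCCA, which lie inside TGNACTTTG read on the other strand, were present in 4 (5.06%), against 0.333%.

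The remaining patterns had few matches or similar shares. CCAAT was present in 30 of the 79 promoters (38%), against 35.1%, and the E-box CACGTG in 3 (3.8%), against 7.84%. The palindromic HNF1 pattern, searched in a short, a longer and a full form that each contain the one before, was present in 3, 1 and 0 of them, against 0.282%, 0.0598% and 0.00855%. The palindromic glucocorticoid receptor pattern was present in 3, against 0.316%, and TTATGTAA in 1, against 0.479%. The C/EBP letters TTGCGCAA, contained in TTGCNNAA, and the CRE letters TGACGTCA were present in 0, against 0.231% and 2.64%. Over the wider set of 941 promoters of genes at 10 or above, TTGCNNAA was present in 9.88% and TATAAA in 7.01%.

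Apolipoproteins, the protein part of lipoprotein particles, were bright as well, with a median of 11.87. Of 17 measured genes, 15 were at 10 or above, against 7.8% of all genes. Among the 30 brightest were 5 of them: Apoc3 at 14.43 ± 0.045, Apoe at 14.27 ± 0.097, Apoc1 at 13.96 ± 0.055, Apob at 13.84 ± 0.055 and Apoa2 at 13.76 ± 0.089. The remaining plasma proteins of the 30 brightest were the protease inhibitors Serpina1 (14.21 ± 0.089), Serpina3c (14.03 ± 0.097), Itih3 (14.03 ± 0.045) and Itih4 (13.79 ± 0.124), complement C3 (14.16 ± 0.055), the fibrinogen chains Fgb (13.98 ± 0.148), Fga (13.86 ± 0.134) and Fgg (13.86 ± 0.114), the copper carrier ceruloplasmin (Cp, 13.93 ± 0.157), Apoh (13.88 ± 0.11), the heme carrier hemopexin (Hpx, 13.82 ± 0.192), and the fetuins Fetub (13.94 ± 0.114) and Ahsg (13.8 ± 0.122). Serpina3l, a relative of Serpina3c, was at 13.78 ± 0.164.

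The 5 cellular proteins among the 30 brightest had other roles. COX2, here the mitochondrially encoded subunit of cytochrome c oxidase, was at 14.19 ± 0.074, Mgst1, a microsomal glutathione transferase, at 14.13 ± 0.045, and Phyh, a peroxisomal enzyme that acts on branched fatty acids, at 13.9 ± 0.122. Car3, a carbonic anhydrase abundant in male rat liver, was at 13.87 ± 0.217, the widest spread of the 30, with 13.5 in chow 2 and 13.9 to 14.05 in the other 4 animals. Cyp2c7, a cytochrome P450, was at 13.85 ± 0.112. Chow 2 was also high for the fibrinogen chain Fga, at 14.1 against 13.8 in each of the other animals, and for Cp, at 14.2 against 13.8 to 13.9. A dimmer Fga probe set gave 12.4 in chow 2 and 11.5 to 11.9 in the others, with an SD of 0.36. The first gene below the 30, Pigr, the receptor that carries immunoglobulin A into bile, was at 13.74 against 13.76 for Apoa2, the last inside, so the boundary has no meaning beyond the rounding.

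**Figure D1:**
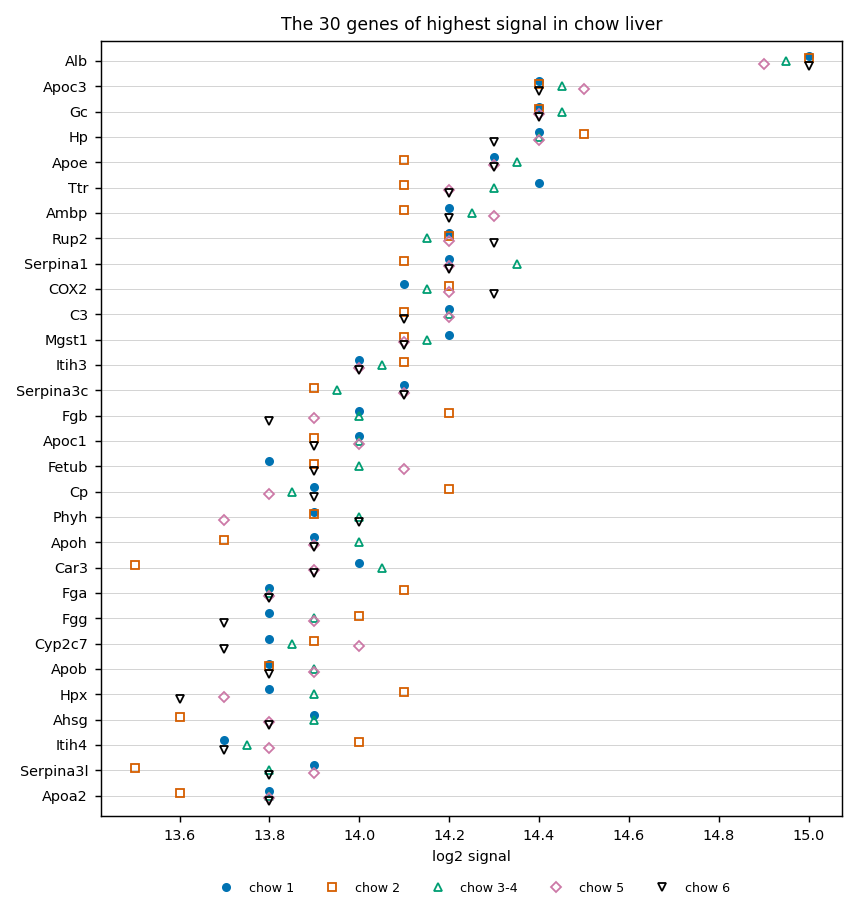
Log2 signal (x axis) of the 30 brightest genes in each of the 5 chow animals, 1 symbol per animal, with genes ordered by mean from Alb (14.97) to Apoa2 (13.76). Chow 2 lies lowest for Car3 at 13.5 and highest for Fga at 14.1.

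Nitrogen and amino acid enzymes were bright as a group. All 36 measured genes of the urea cycle and of amino acid catabolism were at 7 or above, which 44.2% of all genes reached. Of these, 30 were at 10 or above, against 7.8% of all genes. Cps1, the entry enzyme of the urea cycle, was at 13.3 ± 0.071, and Arg1, which releases urea, at 13.14 ± 0.152. Hpd, of tyrosine breakdown, was at 13.17 ± 0.13, Tdo2, which opens the tryptophan ring, at 13.07 ± 0.217, and Mat1a, which makes S-adenosylmethionine, at 12.92 ± 0.148.

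Of the cytochrome P450 genes, 18 of 24 were at 10 or above, against 7.8% of all genes and 41.9% of the genes of all 45 lists. Conjugation enzymes reached 10 in 13 of 28, near the share of all lists, with a median of 9.85 and a lowest level of 2.93. Cyp2c6v1 was at 13.65 ± 0.1, Cyp3a2 at 13.56 ± 0.207, Cyp2c13 at 13.44 ± 0.089 and Cyp2c11 at 13.29 ± 0.195. The last 3 are male-specific forms in the rat, whereas Cyp2c12, the female form, was at 9.07 ± 0.303. Close relatives in this family can share probes. Cyp1a1, which is induced by dioxins and related compounds, was at 4.9 ± 0.158. Of further genes known for a female bias, Sult2a1 (2.93 ± 0.192), Sult2a2 (3.26 ± 0.114), A1bg (3.25 ± 0.122) and Cux2 (3.91 ± 0.34), were below 4, where 2208 genes lay, whereas Cyp2c7 was among the 30 brightest and Prlr, the prolactin receptor, was at 7.87 ± 1.326.

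Genes of the fasting response were spread over the whole range. Pck1, the first committed enzyme of gluconeogenesis, was at 13.65 ± 0.05, with 13.6 to 13.7 in every animal. Fbp1, a later step, was at 12.94 ± 0.134, and Slc2a2, the glucose transporter of hepatocytes, at 11.71 ± 0.089. Cpt1a, which admits fatty acids to mitochondria, was at 11.78 ± 0.13, Acsl1, which activates them, at 13.32 ± 0.084, and the omega-hydroxylases Cyp4a1 and Cyp4a3 at 11.96 ± 0.241 and 11.78 ± 0.192. Of 22 genes of fatty acid oxidation and ketogenesis, 18 were at 10 or above, against 7.8% of all genes. Fgf21, the fasting hormone, was at 6.1 ± 0.458, and Ppargc1a, a coactivator of fasting genes, at 4.66 ± 0.313. Without a fed group, no part of these levels can be assigned to the fast.

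Of the lipogenic genes, 6 of 19 were at 10 or above, against 7.8% of all genes. Elovl5 was at 12.23 ± 0.199, Fads1 at 12.08 ± 0.259 and Scd, the stearoyl-CoA desaturase, at 11.67 ± 0.435. Fasn, the fatty acid synthase, was at 9.8, 10.6, 9.55, 10.4 and 9.5 in chow 1, 2, 3-4, 5 and 6, and Thrsp, a lipogenic gene driven by thyroid hormone, ran from 8.8 in chow 6 to 11.6 in chow 2. In cholesterol synthesis, 7 of 18 genes were at 10 or above, against 7.8% of all genes, led by Cyp51 at 11.52 ± 0.311. Chow 2 was the highest animal for 12 of the 18, against 17.5% of all genes. Of the bile acid genes, the conjugating enzyme Baat was at 13.35 ± 0.292 and the uptake carrier Slc10a1 at 12.32 ± 0.148, while Cyp7a1, the rate-limiting enzyme of synthesis, was at 8.87 ± 0.572.

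Among 27 hepatocyte transcription factors and nuclear receptors the levels ran from 3.35 to 12.53. Hnf4a, a master regulator of the hepatocyte, was at 12.53 ± 0.097, Atf5 at 12.25 ± 0.087, Prox1 at 11.1 ± 0.071 and Cebpb at 10.94 ± 0.329. Cebpa was at 9.92 ± 0.13 and Foxa1 at 8.23 ± 0.084. In contrast, Onecut1 (9.75 ± 1.397), Nr1i3 (the receptor CAR, 7.76 ± 0.882), Nr0b2 (the repressor SHP, 7.48 ± 0.823) and Foxa2 (10.18 ± 0.795) had SDs of at least 0.5, which 2.19% of all genes had. Ppara, the fatty acid receptor that drives fasting genes, was listed at 5.85 ± 0.343, although a low signal of one probe set may reflect its affinity.

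Markers of both ends of the liver lobule were present. All 18 measured periportal markers were at 7 or above, which 44.2% of all genes reached, with Pigr, Pck1, Igf1 (13.33 ± 0.067) and Cps1 the highest. Of 18 pericentral markers, 11 were at 7 or above and the others below it. That list had a median of 9.13 and a lowest level of 3.72. Among its bright members, Cyp2e1 was at 12.92 ± 0.311, Rgn at 12.38 ± 0.148 and Cyp1a2 at 11.35 ± 0.18. Glul, the glutamine synthetase of the innermost pericentral cells, was at 10.47 ± 0.11.

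The label of liver was checked against markers of other cells and tissues. The 84 measured markers of pancreas, fat, muscle, brain, testis, kidney and intestine had a median of 3.92, and 2 were at 10 or above, Car3 and Pck1, both of which hepatocytes also express. Beside them, those at 7 or above were Anpep (9.52 ± 0.179), Cela1 (7.99 ± 0.641), Lpl (7.96 ± 0.518), Mbp (7.83 ± 0.244) and Cidea (7.3 ± 0.7). The pancreatic trypsinogen Prss1 (3.31 ± 0.089), the fat hormones Adipoq (3.83 ± 0.12) and Lep (3.61 ± 0.201) and the muscle gene Acta1 (2.96 ± 0.152) were all below 4.

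Markers of non-parenchymal cells of the liver were set against the 44.2% of all genes that were at 7 or above. Of 15 Kupffer cell and macrophage markers, 14 were at 7 or above, led by Clec4f (11.05 ± 0.418), Cd5l (10.36 ± 0.594), Lyz2 (9.87 ± 0.172) and C1qa (9.54 ± 0.378). Of 15 sinusoidal endothelial markers, 9 were at 7 or above, led by Lyve1 (10.51 ± 0.207) and Kdr (9.24 ± 0.114), and the lowest was at 4.5. Of 18 stellate cell and fibroblast markers 6 were, a share below that of all genes, with a list median of 6.35. These were led by Colec11 (10.32 ± 0.148) and Ecm1 (10.02 ± 0.13). Cholangiocyte markers reached 7 in 3 of 11, also a share below that of all genes. They were Cldn3 (9.03 ± 0.217), Anxa4 (8.79 ± 0.195) and Epcam (7.13 ± 0.303), with the bile duct keratins Krt19 at 5.44 ± 0.358 and Krt7 at 3.58 ± 0.259. Of 17 lymphocyte and NK markers only Ccl5 (7.73 ± 0.172) reached 7, and no neutrophil marker did. In whole tissue, fewer cells of a type and less RNA per cell cannot be told apart. Of 8 erythrocyte markers only Hbb, the beta chain of hemoglobin, reached 7, at 11.39 ± 0.525. The median of that list was 4.58, and Alas2, of heme synthesis in red cell precursors, was at 5.66 ± 0.639.

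**Figure D2:**
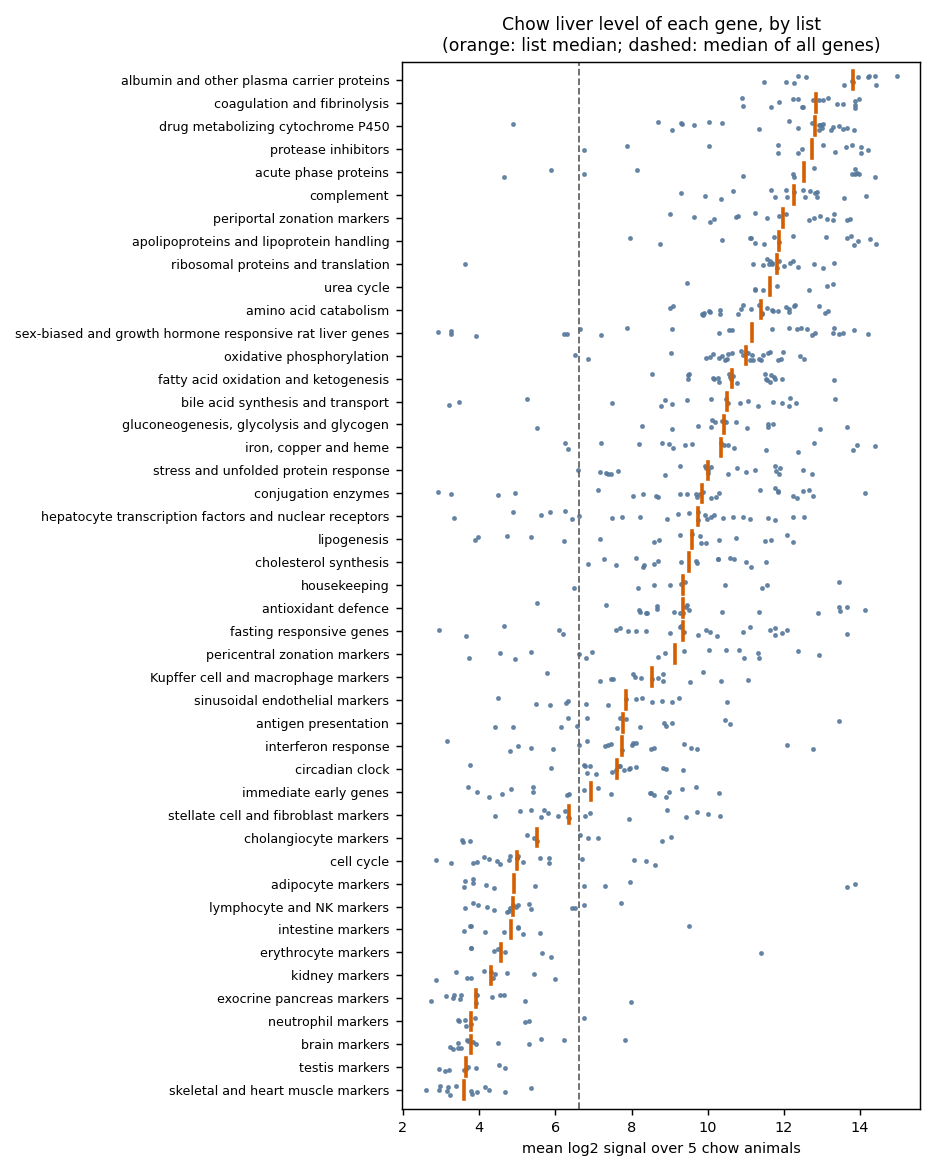
Mean log2 signal over the 5 chow animals (x axis) of each measured gene, 1 point per gene, in 45 gene lists ordered by median (orange bar); the dashed line is the median of all genes, 6.62. Plasma carrier proteins (median 13.81) lie at the top and skeletal and heart muscle markers (3.6) at the bottom.

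By their brightest probe sets, the most constant bright genes differed by 0.1 or less between animals. Among genes at 10 or above, Rpl19, a ribosomal protein, and Sdc2, a cell-surface proteoglycan, had the same value on all 6 arrays, 12.8 and 12.1. Gc (14.41 ± 0.022) and Zdhhc6 (10.21 ± 0.022), a palmitoyltransferase, came next. A further 29 genes, Mgst1 and Itih3 among them, tied at an SD of 0.045, of which the first 6 in alphabetical order completed the 10. Acadvl (10.17 ± 0.045), of mitochondrial fat oxidation, Cct7 (10.02 ± 0.045), a chaperonin subunit, Cdo1 (13.57 ± 0.045), of cysteine breakdown, and Ctnnb1 (11.97 ± 0.045), which encodes beta-catenin, were these 6 with Alb and Apoc3. Dimmer probe sets of some of these genes spread more, with SDs of 0.17 for Gc, 0.08 and 0.14 for Sdc2 and 0.18 to 0.27 for Ctnnb1. That of Alb had an SD of 0.04. At this rounding, and near saturation, an SD of 0 does not show that a transcript did not vary.

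Most genes differed little between chow animals, and a small set differed strongly. The median SD over all genes was 0.15, and 311 of 14217 genes (2.19%) had an SD of 0.5 or above, or 236 without chow 2. Of the 30 genes with the highest SD among the 6923 whose highest animal reached 7, 17 were switch-like, meaning that 1 gap between neighbouring animals covered at least 0.6 of the range, and 13 were graded. Chow 2 was the animal farthest from the median for 15 of the 30 and chow 3-4 for 9, with Prlr, tied between chow 2 and chow 5, and Fos, tied between chow 3-4 and chow 6, each counted under the first. The lowest SD inside was 1.069 for Hhex and the highest outside was 1.053 for Thrsp.

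Ugt2b, a glucuronosyltransferase of steroids, had the widest spread. Its signal was 6.0 in chow 1, 3.6 in chow 2, 13.2 in chow 3-4, 13.1 in chow 5 and 13.5 in chow 6, so 2 animals were low and 3 high with nothing between 6.0 and 13.1. A second, dimmer probe set gave 3.3, 2.8, 10.55, 10.4 and 10.8, the same division. Of its relatives on the array, Ugt2b1 was at 9.8, 8.9, 10.4, 10.7 and 10.7, with the same 2 animals below the other 3 over a much smaller range, and Ugt2b35 was at 12.78 ± 0.164. Near-identical members of this family can share probes.

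Other genes were high or low in 1 or 2 animals. Fam111a, a protease linked to DNA replication, was at 8.2 in chow 6 and at 3.35 to 3.6 in the others. Gpm6a, a membrane glycoprotein, was at 4.7 in chow 1 and at 7.5 to 9.1 in the others, and Ooep, known from oocytes, at 5.2 in chow 1 and at 7.65 to 8.3 in the others. Gfra1, a receptor of glial-derived growth factors, was at 4.6 in chow 5 and at 6.2 to 7.7 in the others. Its dimmer probe set showed chow 5 less apart, at 5.2 against 5.5 to 6.5. Tbccd1, a centrosomal protein, was at 4.6 in chow 6 and 5.2 in chow 5, against 6.7 to 7.0 in the other 3.

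Genes of the rat major histocompatibility complex, which is named RT1 and is highly polymorphic, took 5 of the 30 places. RT1-CE10, of class I, was at 11, 6.6, 10.95, 10.3 and 9.9 in chow 1, 2, 3-4, 5 and 6, with chow 2 alone low. RT1-T24-4 was at 6.3, 10.9, 6.15, 8.2 and 8.9, and RT1-N2 at 5.1, 8.5, 4.95, 4.7 and 5.6, with chow 2 the highest in both. RT1-A was at 4.6, 7.3, 4.9, 4.7 and 6.5.

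For the class II gene RT1-Bb the 2 probe sets went opposite ways in chow 2. The brighter gave 4.2 there and 6.7 to 7.9 in the other animals, and the dimmer gave 7.0 there and 2.9 to 3.3 in the others. Level and the sequence that a probe recognizes cannot be told apart for these genes. RT1-Ba, another class II chain, was at 7.1 in chow 2 and 9.1 to 9.6 in the others, while RT1-Da was at 10.1 in chow 2 and 8.4 to 9.3 in the others. Without chow 2, the SD was 0.53 for RT1-CE10, 0.52 for RT1-Bb and 0.38 for RT1-N2.

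Other genes of the 30 had chow 2 at one end. Cxcl1, a chemokine that attracts neutrophils, was at 10.1 in chow 2 and 9.1 in chow 1, against 6.45 to 6.7 in the other 3 animals. Wfdc21, a secreted protein with a whey acidic domain, was at 11.8 in chow 2 against 8.7 to 9.55, and Slpi, an inhibitor of leukocyte proteases, at 5.1 against 7.7 to 9.5. Cyp17a1, a steroid hydroxylase, was at 4.3 in chow 2 and 6.3 to 7.8 in the others, Nim1k, a kinase, at 4.7 and 6.6 to 8.2, and the collagen receptor Ddr1 at 6.0 and 7.1 to 8.9. Without chow 2 the SD fell from 1.247 to 0.38 for Wfdc21, from 1.792 to 0.81 for Slpi, from 1.454 to 0.73 for Nim1k and from 1.378 to 0.79 for Cyp17a1. It was 0.83 for Ddr1 and 1.26 for Cxcl1.

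The wider gene groups showed the same animal apart. Chow 2 was the highest animal for 13 of 15 Kupffer cell and macrophage markers, for 11 of 17 complement genes and for 10 of 14 acute phase genes, against 17.5% of all genes, and the macrophage markers averaged 9.22 in chow 2 against 8.25 to 8.57 in the others. Cd163, a hemoglobin scavenger receptor of macrophages, was at 7.7, 9.1, 8.15, 7.6 and 7.9 in chow 1, 2, 3-4, 5 and 6. Orm1, an acute phase glycoprotein, was at 13.4 in chow 2 and 11.8 to 12.4 in the others, A2m at 8.1 and 5.8 to 7.0, and Lbp, which binds bacterial lipopolysaccharide, at 9.0 and 7.6 to 8.1. S100a9, a protein of neutrophils and monocytes, was at 6.7 and 4.4 to 5.2. Of 9 neutrophil markers, 5 were highest in chow 2 and 3 had an SD of 0.5 or above, against 0 without chow 2. Beside S100a9 these were S100a8, at 4.5 in chow 2 and 3.05 to 3.4 in the others, and Fcgr3a, an antibody receptor that macrophages and NK cells also carry, at 7.7 and 6.1 to 6.9. The others with means below 4 were Camp, Cxcr2, Csf3r, Mmp8 and Np4, and Defa5 was at 5.31 ± 0.124. The part of such cells in the other differences of chow 2 was not tested. Of the macrophage markers, 6 had an SD of 0.5 or above with all 5 animals and 0 without chow 2.

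Metabolic lists did not all go one way in that animal. Cholesterol synthesis deviated by a mean of 0.33 and lipogenesis by 0.16 in chow 2, above the 5-animal mean. Chow 2 was the lowest for 19 of 22 genes of fatty acid oxidation and ketogenesis, 14 of 24 cytochrome P450 genes, 14 of 28 conjugation enzymes and 14 of 29 genes of oxidative phosphorylation, against 17.9% of all genes. The conjugation enzymes deviated by a mean of -0.48 in chow 2 with Ugt2b and by -0.27 over the 27 genes without it. Chow 2 also had the largest GAPDH 3′ minus 5′ difference of the chow arrays, and the part of that difference in these values was not tested.

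**Figure D3:**
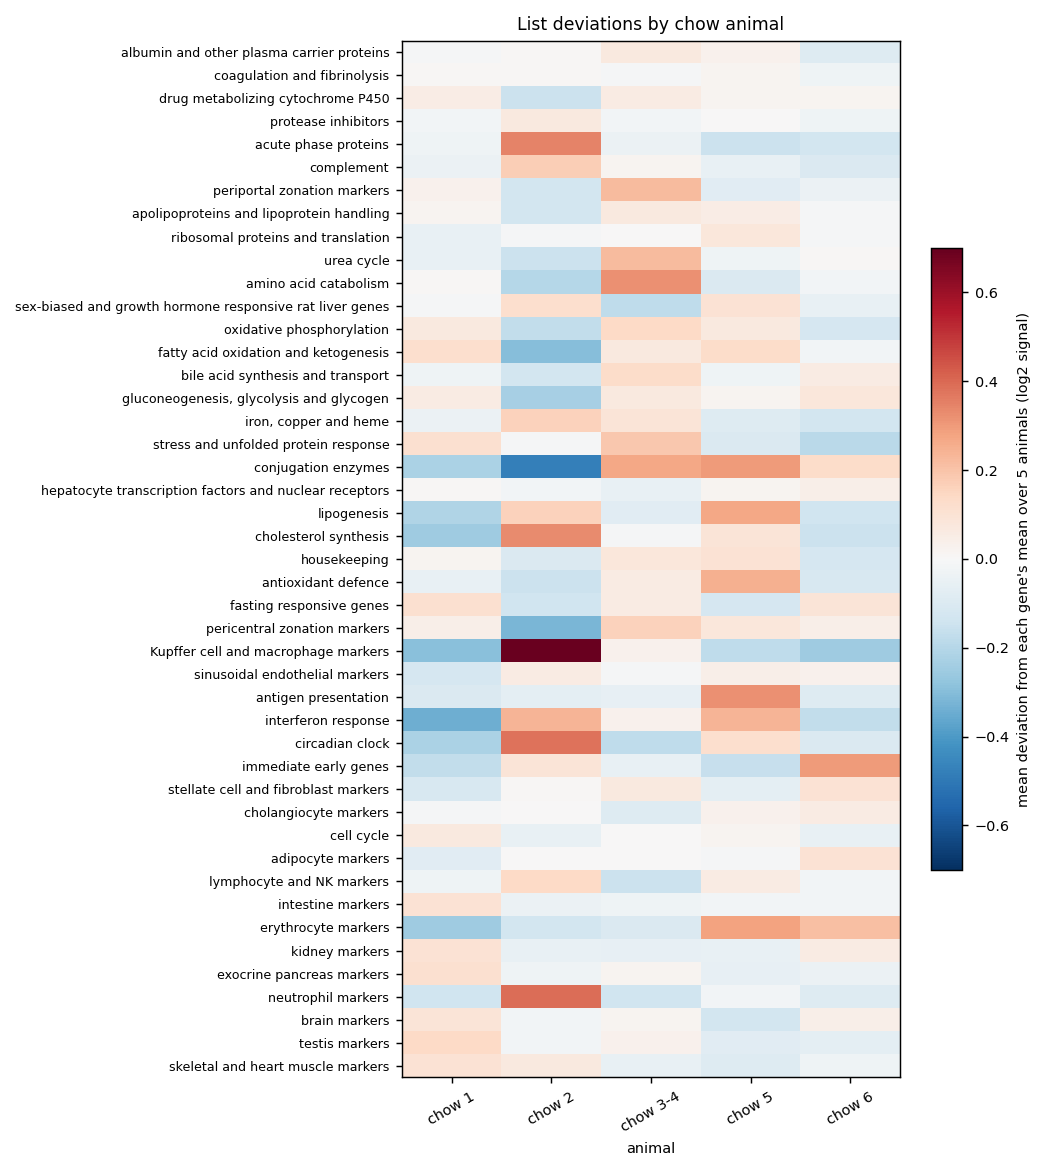
Mean deviation of each of the 45 gene lists (rows, ordered by median level) from the genes' means over the 5 chow animals (columns), in log2 units by colour. Kupffer cell and macrophage markers are highest in chow 2 (0.69) and amino acid catabolism is highest in chow 3-4 (0.32).

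Clock genes formed the list with the highest median SD, 0.47 over 18 genes, or 0.33 without chow 2, against 0.15 and 0.14 over all genes. Other lists were close. Macrophage markers had 0.43 with chow 2, and without it fasting responsive genes also had 0.33 and interferon response genes 0.32. Dbp, an output gene of the clock that encodes a D-box factor, was at 5.4, 9.4, 5.35, 7.6 and 6.4 in chow 1, 2, 3-4, 5 and 6. Per3, of the repressing arm, was at 6.1, 8.3, 5.85, 7.0 and 6.6, with the animals in the same order. Bmal1, of the activating arm, was at 7.1, 5.5, 7.4, 7.0 and 6.8, and its partner Npas2 at 8.0, 6.2, 8.2, 7.8 and 8.3, with chow 2 lowest for both. Noct, a rhythmic phosphatase, was at 7.0 in chow 3-4 and 3.5 to 4.7 in the others. Nfil3, a repressor of D-box genes, spread least of the 18, at 9.34 ± 0.114.

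The relation among the clock genes was examined in the 10 HFD and HFD+PE animals, whose SDs were not used to single out the list. The list itself was chosen with earlier results of these data known, so these animals are not shown to be independent of that choice. This was added after the chow values had been seen. After each gene was centred on its group mean, 17 clock genes were compared with Dbp by an exact permutation within groups, two-sided, of 14400 arrangements. Of the 17, 15 had an adjusted p under 0.05 for Pearson's r, 9 above and 6 below 0. For Spearman's rho 12 had one, without Per1 (0.056), Nr1d1 (0.059) and Nr1d2 (0.0512). No other genes were compared with Dbp, and p was adjusted over the 17 alone. The share of all genes that would reach such correlations is therefore not known, and the counts do not set clock genes apart from other genes. Per3 had r = 0.932 (permutation p = 0.00306, adjusted 0.00682) and rho = 0.927 (p = 0.0041, adjusted 0.00871), with r = 0.957 without the 2 animals farthest from the median of Dbp and r = 0.951 among the 8 animals whose arrays were all in the low hybridization control set. Bmal1 had r = -0.904 (permutation p = 0.000417, adjusted 0.00354) and rho = -0.942 (p = 0.000694, adjusted 0.00394), with r = -0.907 and r = -0.931 in the same checks. Bhlhe40 had r = 0.19 (permutation p = 0.682, adjusted 0.682) and Hlf r = 0.669 (permutation p = 0.113, adjusted 0.12).

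A further set was low in chow 3-4. Cish, an inhibitor of cytokine receptors induced through STAT5 by growth hormone, was at 7.4, 8.0, 4.85, 8.1 and 7.7 in chow 1, 2, 3-4, 5 and 6, so chow 3-4 lay 2.55 below the next animal. Both arrays of that animal were low, at 4.7 and 5.0. A dimmer probe set of Cish gave 4.2 in chow 3-4 and 4.8 to 5.1 in the others. Socs2, a related inhibitor, was at 5.3 in chow 3-4 and 6.7 to 7.2 in the others.

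The promoter of Cish (chr8:116850719-116850968, plus strand, GRCr8) is shown because it held 4 matches to TTCNNNGAA, in capitals, a pattern present in 6.13% of the promoters of all measured genes. A match is a description of letters and not a bound site.
Cish: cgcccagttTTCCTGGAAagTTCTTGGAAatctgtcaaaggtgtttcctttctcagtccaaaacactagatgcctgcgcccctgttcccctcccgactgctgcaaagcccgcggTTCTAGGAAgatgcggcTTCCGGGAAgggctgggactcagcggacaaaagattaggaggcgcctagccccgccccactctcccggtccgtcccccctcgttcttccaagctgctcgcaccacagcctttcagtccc

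Further regulators were low in that animal. Gadd45g, a stress-inducible growth arrest gene, was at 7.7 in chow 3-4 and 9.8 to 10.8 in the others. Rgs3, which shortens G protein signals, was at 7.95 and 10 to 10.5, and Foxa2, a factor that opens liver chromatin, at 8.8 and 10.3 to 10.8. Onecut1, another liver factor, was at 7.75 and 8.9 to 11, Hhex at 8.75 and 9.9 to 11.3, and Slc25a30, a mitochondrial carrier, at 8.0 and 9.5 to 11.1. Pdk4, which restrains glucose oxidation, was at 8.85 and 10.4 to 10.7, and Myc at 5.8 and 7.2 to 7.7. Dimmer probe sets did not all show chow 3-4 apart. Those of Rgs3 gave 4.8 there against 5.2 to 5.4, and 5.05 against 5.1 to 5.2. That of Pdk4 gave 6.05 against 6.2 to 7.0. Those of Onecut1 (5.9 against 6.6 to 8.6) and Slc25a30 (4.45 against 5.7 to 7.7) were clearly low there.

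Other genes were high in chow 3-4. That animal was the highest for 18 of 28 genes of amino acid catabolism, against 12.9% of all genes. Sds, which turns serine into pyruvate, was at 11.35 in chow 3-4 and 9.2 to 10.1 in the others, and Tat, of tyrosine breakdown, at 10.3 and 8.2 to 9.1. Bcl6, a repressor that competes with STAT5, was at 11.05 and 9.9 to 10.5, and the zinc finger gene Zfp354a at 10.35 and 7.5 to 9.6. Fos, an immediate early gene, was at 8.0 in both chow 3-4 and chow 6 and at 4.6 to 5.5 in the others. A dimmer Fos probe set did not show this, at 3.5 to 3.85 over the animals.

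Hormone-related genes divided the animals differently. The prolactin receptor Prlr was at 9.3 in chow 2 and chow 5 and at 6.6 to 7.25 in the other 3, and its other probe sets gave 8.6 and 8.4 against 4.2 to 5.2, and 5.7 and 6.2 against 3.3 to 4.25. Serpina7, the thyroxine-binding globulin, was at 8.1 in chow 2, 4.95 in chow 3-4 and 6.1 to 6.2 in the others, with an SD of 1.132, or 0.61 without chow 2. Igfbp1, a binding protein of insulin-like growth factors that rises in fasting, ran from 8.5 in chow 5 to 10.8 in chow 1.

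**Figure D4:**
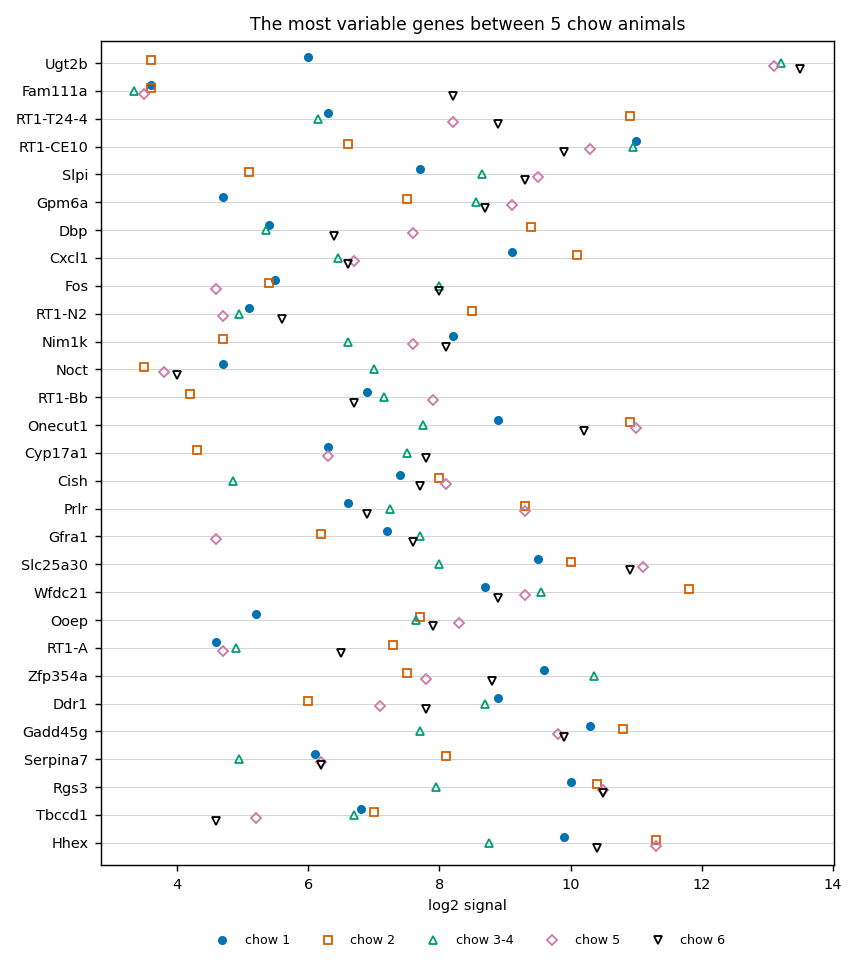
Log2 signal (x axis) in each of the 5 chow animals, 1 symbol per animal, of the most variable genes that have a proper name, ordered by SD from Ugt2b (4.717) to Hhex (1.069). Ugt2b is at 3.6 and 6.0 in 2 animals and 13.1 to 13.5 in 3, and Cish is low in chow 3-4 alone.

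Most of these genes also varied in the animals that did not choose them. Of the 30, 26 had an SD of 0.5 or above between the 5 HFD animals and 26 between the 5 HFD+PE animals, against 3.18% and 4.55% of the 6923 genes. The median SD of the 30 was 1.36 in chow, 1.04 in HFD and 1.0 in HFD+PE. Slpi, with an SD of 1.792 in chow or 0.81 without chow 2, had 0.324 in HFD and 0.432 in HFD+PE, and RT1-N2, with 1.561 or 0.38, had 0.394 and 0.261. Among the 15 genes farthest in chow 2, 12 reached 0.5 in each of the other groups, and among the 9 farthest in chow 3-4, all 9 did.

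**Figure D5:**
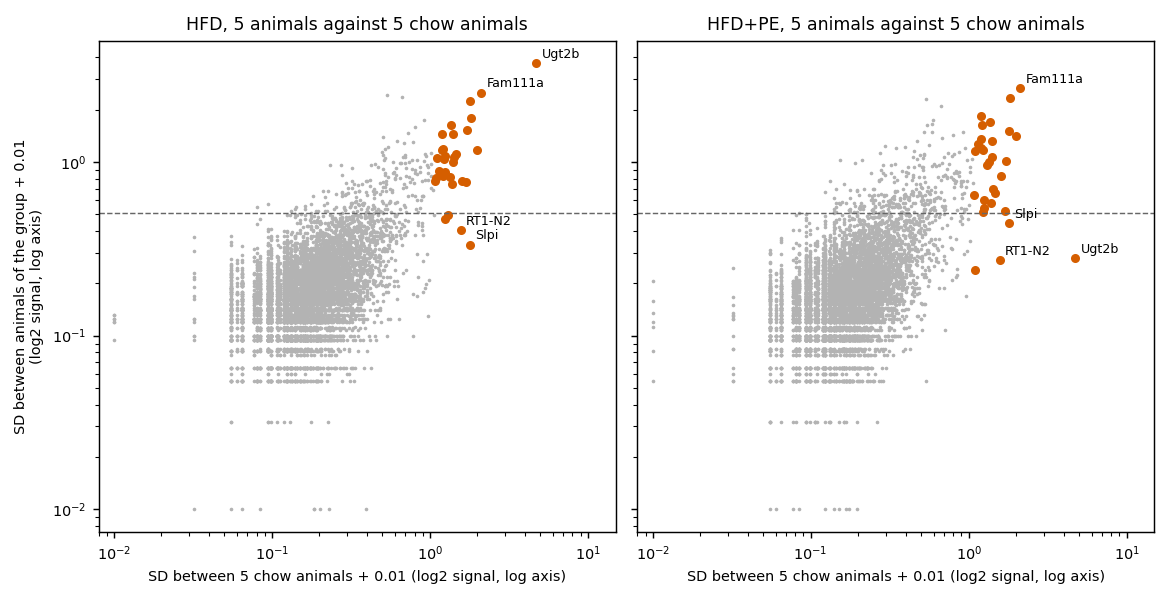
SD between 5 chow animals (x axis) against the SD between 5 HFD animals (left) or 5 HFD+PE animals (right), each plus 0.01 on log axes, for 6923 genes (grey) and the 30 most variable chow genes (orange). The dashed line marks an SD of 0.5; Slpi and RT1-N2 lie below it in both panels and Ugt2b in HFD+PE alone.

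The spread itself was compared between groups with limma on absolute deviations. Of 14217 genes, 4 differed between chow and HFD (0.0281%), all wider in HFD, and 1 differed between chow and HFD+PE (0.00703%), at a Benjamini-Hochberg adjusted p under 0.05. The one direction did not hold in other fits: without chow 6, 8 genes were called in HFD, of which 4 were wider and 4 narrower than in chow. The 1 was Ugt2b, at 12.7 to 13.4 in every HFD+PE animal, and no gene was called without chow 2. In the HFD group Ugt2b divided the animals as in chow, at 5.9 in HFD 1-2, 7.1 in HFD 6 and 13.2 in HFD 3, 4 and 5. The 4 were Cfap126, at 6.4 to 6.7 in chow and at 9.0 in 2 HFD animals, Aopep, at 8.7 to 8.9 in chow and 8.3 to 9.4 in HFD, Afg1l, at 6.8 to 6.85 and 6.1 to 7.05, and Mis18a, at 3.3 to 3.6 and 3.4 to 4.9. On simulated data of the same size the test recovered 13 of 200 genes made more variable, so few calls do not show equal spread.

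Against the other diets no gene passed the test of levels. With limma, 0 of 14217 genes (0.0%) differed between HFD and chow at an adjusted p under 0.05, with 1088 at an unadjusted p under 0.05 and a smallest adjusted p of 0.315, and 0 (0.0%) between HFD+PE and chow, with 1584 and 0.104. Treating all 18 arrays as separate animals gave 145 genes for HFD+PE against chow, of which 79 were higher and 66 lower. The 30 brightest genes differed from chow by -0.11 to 0.11 in HFD and by -0.16 to 0.19 in HFD+PE, with Cp the lowest and Car3 the highest in both. The 30 most variable differed by -1.34 to 1.7 in HFD and by -1.54 to 3.24 in HFD+PE, the last being Ugt2b, with an adjusted p of at least 0.625 and 0.1807.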

How the data were processed

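Liver RNA was hybridized to Affymetrix Rat Genome 230 2.0 arrays. The authors made the deposited log2 values with Affymetrix Expression Console and RMA, per the submitters' processing notes. RMA subtracts background, brings the arrays to one distribution and combines each set's probes, and no version of either is stated there. All values of the 31099 probe sets were multiples of 0.1. An array has no read depth, so this rounding and the 5 animals set the precision.

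Of the probe sets, 57 controls were left out, 20826 named 1 gene symbol, 436 several and 9780 none. Of the 100 brightest in chow, 21 named no single gene and are not described. Symbols came from the platform annotation, updated through the Entrez identifier. A gene was its brightest probe set over all arrays. The 45 gene lists held 855 symbols, 723 of them measured. The genes named were the 30 of highest mean, the 30 of highest SD with the highest animal at 7 or above, the 10 of lowest SD at 10 or above (ties by symbol), up to 5 members of highest mean and 3 of highest SD of a list described, markers of other tissues at 7 or above, and members by role; 265 placeholder symbols were counted and not named. The members and lists were chosen with earlier results of these data known.

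Limma 3.58.1 in R 4.3.3 compared the groups (lmFit and eBayes, 1 mean per group, 15 animals, two-sided, Benjamini-Hochberg over 14217 genes), and spreads were compared by the same fit on absolute deviations from the group mean. On simulated data the level test recovered 198 of 200 genes changed by 2.0 log2 units, with 6 false calls, and the spread test 13 of 200, with 1. The median size of the measured differences from chow was 0.08 in HFD and 0.09 in HFD+PE. Recovery at 2.0 therefore does not show how many changes of such smaller sizes the test would find. Alternatives changed the animals, probe sets, filters, measures and the hybridization control set. Promoters were RefSeq sequences of GRCr8.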

Additional observations from a re-analysis of the deposited data

Results flagged for a closer look

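Of the 192 genes named in the text, 38 had 1 chow animal whose gap to the nearest other exceeded 0.71 of the range (Dixon's limit for 5 values). Chance passes about 1 in 20 groups, and 539 of 6916 genes (7.79%) passed over the whole array. The genes named include those chosen for a wide spread, so their share is no measure of its own. Where the range is near the rounding step of 0.1, as for Gc, Zdhhc6, Camp, Csf3r, Afg1l and Cct7, the gap is a single step or less.

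Chow 2 was the animal apart for 20 genes. It was high for the plasma proteins Fga (14.1), Cp (14.2) and Wfdc21 (11.8), for the macrophage genes Cd5l (11.4) and C1qa (10.2), and for RT1-N2 (8.5), S100a8 (4.5), the interferon-induced Gbp2 (6.6), Cux2 (4.5) and Csf3r (3.7). It was low for the plasma proteins Apoe (14.1), Apoa2 (13.6) and Serpina3l (13.5), for the enzymes Car3 (13.5), Cyp3a2 (13.2) and Ugt2b35 (12.5), for the factors Atf5 (12.1) and Npas2 (6.2), and for RT1-Ba (7.1) and RT1-CE10 (6.6).

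Chow 3-4 was apart for 14 genes. It was low for Cish (4.85), Socs2 (5.3), Foxa2 (8.8), Rgs3 (7.95), Pdk4 (8.85), Myc (5.8) and Camp (3.75), and high for Cebpb (11.5), the amino acid enzymes Tdo2 (13.45) and Arg1 (13.4), Gc (14.45), Zdhhc6 (10.25), Cct7 (10.1) and Afg1l (6.85). Chow 1 was low for Ooep (5.2), Epcam (6.6) and Acta1 (2.7), and chow 6 was high for Fam111a (8.2).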

How the results depend on the processing

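The 30 brightest genes kept 21 of their number when all probe sets of a gene were averaged and 29 or 30 under the other alternatives, animals left out included. The 30 most variable genes kept 14 with arrays of the low hybridization control set only (2 of 5 animals and 1 array of another), 13 by the median absolute deviation, 19 with a chow mean at 7 or above, and 24 with averaged probe sets. Leaving out 1 animal kept 19 (without chow 2) to 28 of them, with 21 without chow 3-4. Other measures and filters kept 28 to 30.

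No alternative gave a gene for HFD against chow. For HFD+PE against chow, 18 arrays as separate animals gave 145 genes and the replicate number as a block on 18 arrays gave 119; leaving out 1 chow animal gave 0 to 1, the 1 without chow 5. Genes that differed in spread between chow and HFD numbered 10 with the replicate block, 2 at a mean of 7 or above, 1 with the hybridization control set as a covariate, and 3 to 8 with 1 chow animal left out, the 8 without chow 6. Of the genes so called, 1 was narrower in HFD with the block and without chow 1 or 3-4, 2 without chow 5 and 4 without chow 6. For HFD+PE they numbered 4 with 18 separate arrays, 2 with the block, and 0 (without chow 2) to 5 (without chow 3-4). The array numbers did not pair the groups: of 18 same-numbered pairs, 4 had a correlation of deviations over 0.1, with a range of -0.305 to 0.189. The block on 18 arrays also treats the arrays counted as 1 animal as separate, and the cause of its counts was not tested.

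Of the levels of single genes, 14 values moved by more than the SD between animals and 319 did not, and of the list medians 29 moved and 376 did not, most moves being where probe sets were averaged. Nr1d1 had r = 0.293 with Dbp without the 2 farthest animals, against 0.705. No value changed sign. Precision is limited by 5 animals, by rounding and by saturation of the brightest probe sets.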

Other observations

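Interferon-induced genes, which answer to viral and other danger signals, were lowest in chow 1 and highest in chow 5 more often than in other animals. Of 21 measured genes, 14 were lowest in chow 1, against 19.2% of all genes, and 11 were highest in chow 5, against 16.8%. By mean deviation of the list, chow 2 and chow 5 were alike at 0.24, and chow 1 was at -0.34. Of 16 antigen presentation genes, 6 were lowest in chow 1 and 7 highest in chow 5, but 6 were highest in chow 2. That list deviated by a mean of 0.32 in chow 5, -0.1 in chow 1 and -0.09 to -0.06 in the others. Of 19 lipogenic genes, 6 were lowest in chow 1 and 5 in chow 6, and 10 were highest in chow 5. Ifit2, a translation inhibitor, was at 6.5, 7.6, 7.35, 8.0 and 7.4 in chow 1, 2, 3-4, 5 and 6, and the antiviral GTPase Mx2 was at 6.9, 7.6, 7.55, 8.0 and 7.2. Gbp2 was high in chow 2, at 6.6 against 4.8 to 5.2. Antioxidant genes were highest in chow 5 for 13 of 21. Nqo1, a quinone reductase, was at 9.3 in chow 5 and 9.15 in chow 3-4, against 7.5 to 8.2 in the other animals, and Gclm, a subunit of the enzyme that starts glutathione synthesis, was at 9.3 in chow 5 and 8.1 to 8.8 in the others. Of 23 genes of stress and the unfolded protein response, 13 were lowest in chow 6, against 11.4% of all genes, and 12 were highest in chow 3-4, against 12.9%. Hspa5, the main chaperone of the endoplasmic reticulum, was at 12.9, 12.9, 12.95, 12.6 and 12.4.

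Genes of iron and copper handling held Hamp, the iron hormone hepcidin, at 13.2, 13.2, 12.55, 13 and 12, and the metallothionein Mt2A, which ran from 11.1 in chow 5 to 13.5 in chow 2. Hmox1, which degrades heme, was at 9.1 in chow 2 and 7.7 to 8.2 in the others. Of the cell cycle genes, 3 of 21 were at 7 or above, Cdkn1a (8.62 ± 0.893), Ccnd1 (8.38 ± 0.327) and Pcna (8.07 ± 0.13), while Mki67, a marker of dividing cells, was at 4.26 ± 0.279. Egr1, an immediate early factor, was at 8.8, 7.7, 8.9, 7.7 and 9.5, and Jun at 7.5, 9.0, 8.2, 9.0 and 8.7, so these genes did not order the animals alike.

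The values of Cish fell into a high and a low part in all 3 groups. Its signal was 8.55, 5.2, 7.0, 4.9 and 7.9 in HFD 1-2, 3, 4, 5 and 6, and 8.4, 4.8, 5.0, 4.9 and 7.4 in HFD+PE 1, 2, 3-4, 5 and 6. Foxa2 was at 10.6, 9.0, 10.8, 9.1 and 10.3 in the HFD animals and at 10.7, 9.1, 9.55, 9.3 and 10.7 in the HFD+PE animals. The animals at 5.2 or below for Cish were thus at 9.55 or below for Foxa2, as chow 3-4 was, and the others at 10.3 or above. By its brightest probe set alone, Rgs3 was at 11, 8.8, 10.4, 8.7 and 10.4 in HFD and at 10.6, 8.9, 8.4, 8.1 and 10.4 in HFD+PE, with the same animals low. These genes were picked after their values had been seen, and no test was made.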
